A study of Mus musculus with 6 samples.

Results

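The tripartite motif (TRIM) family of ubiquitin ligases was followed through stimulation with lipopolysaccharide (LPS) and inhibition of USP7 in murine macrophages. Its members were taken as the gene names of the array that begin with Trim and a digit, a rule that uses no measured value, and it gave 66 gene names with 100 probes, of 34843 gene names with 55680 probes tested. *Trim25* was among them, and *Trim30* was present as *Trim30a*, *Trim30b*, *Trim30c*, *Trim30d*, and *Trim30e-ps1*, with no probe named *Trim30* alone. The cells were bone marrow-derived macrophages of wild-type C57/B6 mice, which the labels give as female and 6 to 8 weeks old, grown for 7 days in L929-conditioned medium. The groups were untreated cells, cells given 100 ng/ml LPS, a TLR4 ligand, for 4 h, and cells given the USP7 inhibitor HBX41,108 at 10 µM, 30 min ahead of the same LPS treatment (LPS+USP7i). The sources conflict on the unit of the LPS dose and on the age of the mice. Whether the solvent of the inhibitor was also given with LPS alone is not stated in the sources used here, so effects of solvent and inhibitor cannot be told apart. Each group had 2 1-color Agilent arrays, described as independent experiments, and all 6 arrays lay on 1 slide, with each treatment in a slide row of its own, so row and treatment cannot be told apart. Arrays with the same replicate number lay in the same slide column.

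TRIM proteins share an N-terminal arrangement of a RING finger, B-boxes, and a coiled coil, and most act through the RING finger as E3 ubiquitin ligases, whereas the C-terminal part, most often a PRY-SPRY domain, binds the target. Many members are interferon-inducible, restrict viruses, or tune signaling from Toll-like receptors and RIG-I-like receptors in macrophages. USP7 works in the opposite direction to a ligase, since it removes ubiquitin from its substrates, among them the NF-κB subunit p65.

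Values are log2 signal after quantile normalization, a gene with several probes is represented by the brightest on average, and changes are given ± their standard error with limma's Benjamini-Hochberg adjusted p. Of the 66 members, 38 were well above background on all 6 arrays, 5 on some arrays (*Trim9*, *Trim30b*, *Trim45*, *Trim65*, and *Trim69*), and 23 on no array. For comparison, 15620 of all 34843 gene names were well above background on all 6 arrays and 20511 on at least 1. The 23 members that were not well above background on any array lay between 1.90 and 4.37, and 0 of them passed the test in any comparison. They included all 4 members known mainly from muscle, *Trim54*, *Trim55*, *Trim63*, and *Trim72*, as well as *Trim38*, a feedback regulator of Toll-like receptor signaling, which was 3.90 and 4.25 on the LPS arrays, against 3.80 and 2.95 on the untreated and 4.37 and 4.00 on the LPS+USP7i arrays. *Trim30e-ps1*, whose name marks it as a pseudogene, was 2.26 and 2.27 on the untreated arrays, 2.27 and 2.27 on the LPS arrays, and 2.24 and 2.25 on the LPS+USP7i arrays, also at background level throughout. Over the 52 member probes well above background on every array, differences between the replicates had an SD of 0.25 among the untreated, 0.29 among the LPS, and 0.34 among the LPS+USP7i arrays.

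**Figure D1:**
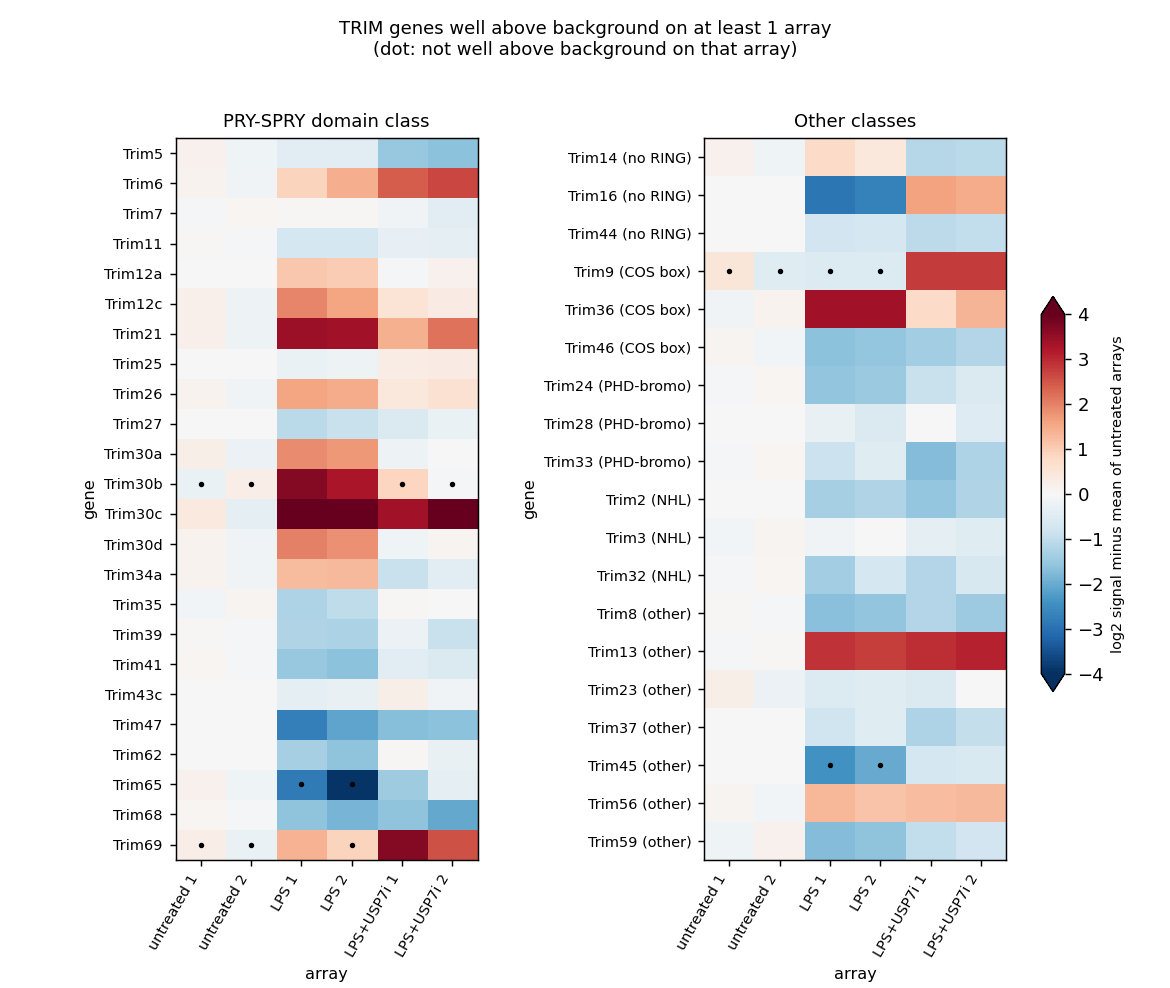
Log2 signal of the 43 TRIM genes that were well above background on at least 1 array. Values for each of the 6 arrays are differences from the mean of the untreated arrays. Members listed under the PRY-SPRY class are on the left. Other classes, among them the members without a RING domain, are on the right. Colors are clipped at 4 in either direction and dots mark arrays on which a gene was not well above background; *Trim30c* lies beyond the color range on both LPS arrays and on 1 LPS+USP7i array.

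LPS changed the family in both directions. Relative to untreated cells, 13 members were higher (19.7%) and 17 were lower (25.8%) with LPS at a limma p value under 0.05 after Benjamini-Hochberg adjustment over all probes, compared with 7.98% and 12.8% of all gene names, and 36 passed in neither direction. In these whole cultures, fewer cells of a type and less RNA per cell cannot be told apart. The 13 higher members were *Trim6*, *Trim12a*, *Trim12c*, *Trim13*, *Trim21*, *Trim26*, *Trim30a*, *Trim30b*, *Trim30c*, *Trim30d*, *Trim34a*, *Trim36*, and *Trim56*. The 17 lower members were *Trim2*, *Trim8*, *Trim11*, *Trim16*, *Trim24*, *Trim27*, *Trim35*, *Trim39*, *Trim41*, *Trim44*, *Trim45*, *Trim46*, *Trim47*, *Trim59*, *Trim62*, *Trim65*, and *Trim68*. The median difference was −0.089 over the 66 members and 0.0016 over all gene names. Without untreated replicate 2, 8 members were higher and 11 lower (all gene names 3.28% and 4.73%), without LPS replicate 1, 8 were higher (5.42%), and without untreated replicate 1, 10 were lower (5.79%). In a fit with the replicate number as a block, called the replicate block below, 11 were higher and 19 lower (8.43% and 13.5% of all gene names). Scaling each array to its 75th percentile moved the median of all gene names by 0.40, and with it 25 members were higher and 18 lower, 58.1% higher among those called as against 43.3% with quantile normalization, but 10 of those 25 were members not well above background on any array. Under that scaling 35.0% of all gene names were higher and 11.6% lower, so the members' 37.9% higher lay near the share of all gene names.

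Pretreatment with the USP7 inhibitor was compared with LPS alone. No group was given the inhibitor without LPS. An effect of the inhibitor on the LPS response and an effect apart from LPS therefore cannot be told apart. In LPS+USP7i relative to LPS, 7 members were higher (10.6%) and 11 were lower (16.7%), compared with 5.51% and 4.28% of all gene names, and 48 passed in neither direction. The 11 lower members were *Trim5*, *Trim12a*, *Trim12c*, *Trim14*, *Trim26*, *Trim30a*, *Trim30b*, *Trim30c*, *Trim30d*, *Trim34a*, and *Trim36*, and the 7 higher members were *Trim9*, *Trim16*, *Trim25*, *Trim35*, *Trim41*, *Trim45*, and *Trim62*. The median difference was 0.014 over the members and 0.00078 over all gene names. The LPS arrays enter this comparison and the one above, so a high or low LPS array moves them in opposite directions, and their values are set side by side here without a count of shared genes. These calls rest on the spread estimated from all 3 groups. With limma fitted to the LPS and LPS+USP7i arrays alone, or without untreated replicate 1 or 2, 0 of all 34843 gene names passed in either direction (lowest adjusted p = 0.0561), so the members' 0 says nothing about them in particular. At an unadjusted limma p under 0.05, 14 members were higher and 15 lower in each of these fits, and 4333 and 3681 of all gene names. Without LPS replicate 1 the counts were 2 higher and 0 lower (1.51% and 2.28% of all gene names), without LPS replicate 2 they were 4 and 1 (1.55% and 2.02%), without LPS+USP7i replicate 1 they were 2 and 4 (3.33% and 1.69%), and without LPS+USP7i replicate 2 they were 4 and 6 (5.47% and 3.41%). With the replicate block, 10 members were higher and 7 lower, 58.8% higher among those called as against 38.9% without it, whereas all gene names gave 4.09% and 3.23%, or 55.9% higher among those called as against 56.3%. The balance of directions among the members called in this comparison thus depends on the fit. In LPS+USP7i relative to untreated cells, which shares the untreated arrays with the LPS comparison, 9 members were higher (13.6%) and 12 lower (18.2%), compared with 6.15% and 8.72% of all gene names. These counts fell to 3 higher and 2 lower without untreated replicate 2 (1.37% and 1.63% of all gene names) and to 5 and 3 without untreated replicate 1 (1.80% and 2.59%). Without either LPS array 5 were higher (3.87%), and without LPS+USP7i replicate 1, 7 were lower (5.37%). With 75th percentile scaling, the median of all gene names was 0.44 here and 0.0024 between LPS+USP7i and LPS. Under it, 21 members were higher and 13 lower relative to untreated cells, 61.8% higher among those called as against 42.9%. Of the 21, 10 were not well above background on any array. All gene names gave 35.1% higher and 9.65% lower under this scaling, near or above the members' 31.8% higher. With the replicate block, 7 members were higher and 13 lower relative to untreated cells (6.35% and 9.43% of all gene names). The block lost the calls of *Trim21* and *Trim25* as higher and added *Trim41* as lower.

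**Figure D2:**
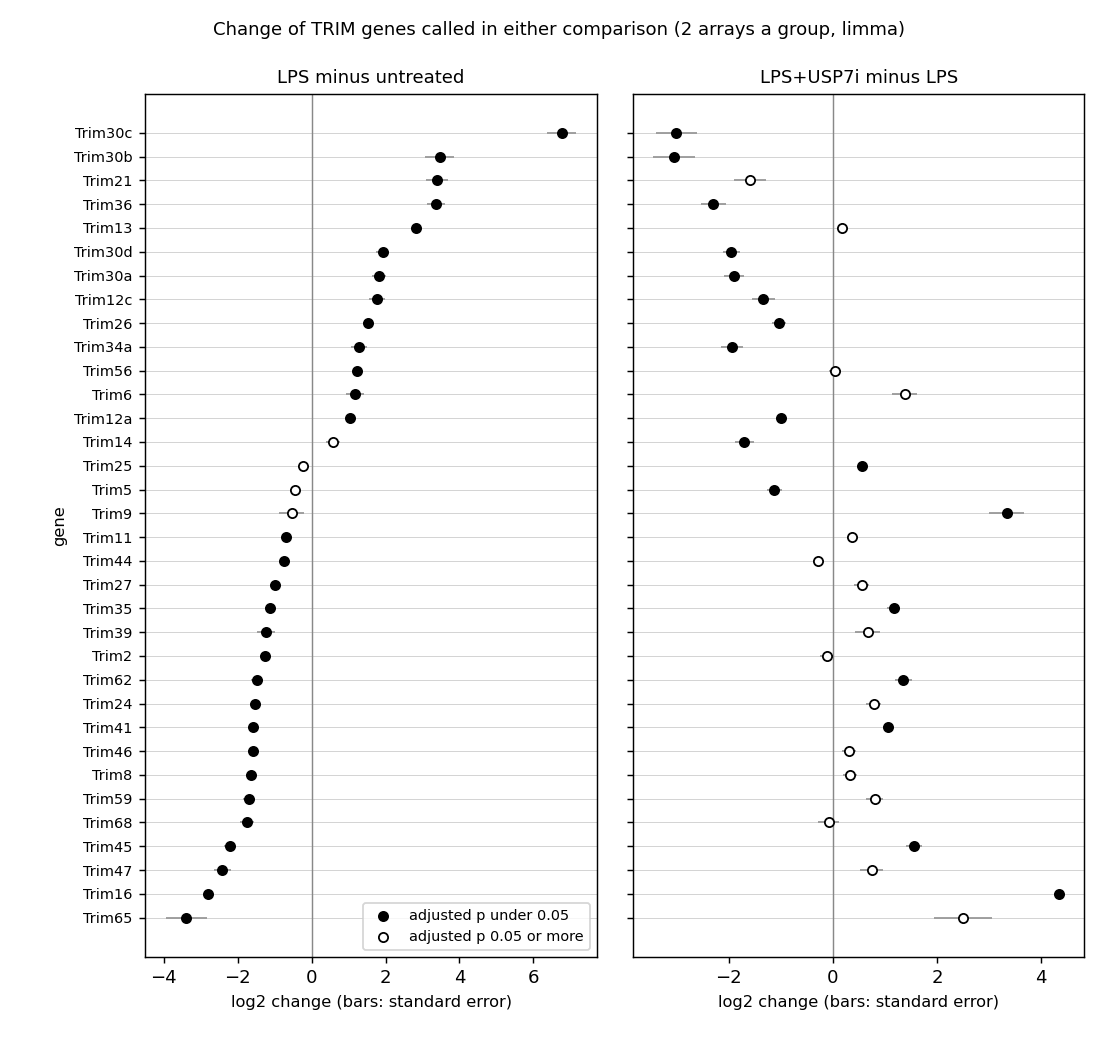
Log2 difference with its standard error for the 34 TRIM genes called in either comparison, LPS minus untreated in one panel and LPS+USP7i minus LPS in the other; filled points have an adjusted p under 0.05. *Trim30c* lies farthest to the right with LPS at 6.76, and *Trim16* farthest to the right with the inhibitor at 4.34.

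Lists of members and of other genes are described below by counts. Beside them stand all gene names, of which 7.98% were higher and 12.8% lower with LPS. In LPS+USP7i relative to LPS these shares were 5.51% and 4.28%. With dim probes left out they were 17.2% and 28.3%, and 15.1% and 12.9%. Counts in lists of a few genes do not set a list apart from these shares. The members known from interferon responses and antiviral defense held most of the genes raised by LPS. Of 15 such members on the array, 11 were higher (9 with the replicate block) and 0 lower with LPS, with a median difference of 1.28, and 1 was higher and 10 were lower in LPS+USP7i relative to LPS, with a median of −1.33, or 1 and 6 with the replicate block. Many of them sit side by side in the genome. By the positions of their probes in the mm9 build, 10 members lay within chr7:111382909-111681534, in the order *Trim6*, *Trim34a*, *Trim5*, *Trim12a*, *Trim12c*, *Trim30b*, *Trim30c*, *Trim30a*, *Trim30d*, and *Trim30e-ps1*, each less than 1000000 bases from the next. With LPS, 8 of these 10 were higher (6 with the replicate block), 0 lower, and 2 neither, with a median of 1.53. In LPS+USP7i relative to LPS, 0 were higher, 8 lower (5 with the replicate block), and 2 neither, with a median of −1.62, and relative to untreated cells 2 were higher, 1 lower, and 7 neither, with a median of 0.022. No 2 probes of different members shared a run of 20 bases. Elsewhere, 6 members lay within chr17:36396026-37047104, where *Trim26* was higher and *Trim39* lower with LPS, and the 3 members within chr8:67505601-67537071, *Trim75*, *Trim60*, and *Trim61*, were not well above background. The 3 members on chromosome 11 at chr11:58465809-58804922 were *Trim58*, *Trim17*, and *Trim11*, of which only *Trim11* was well above background.

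**Figure D3:**
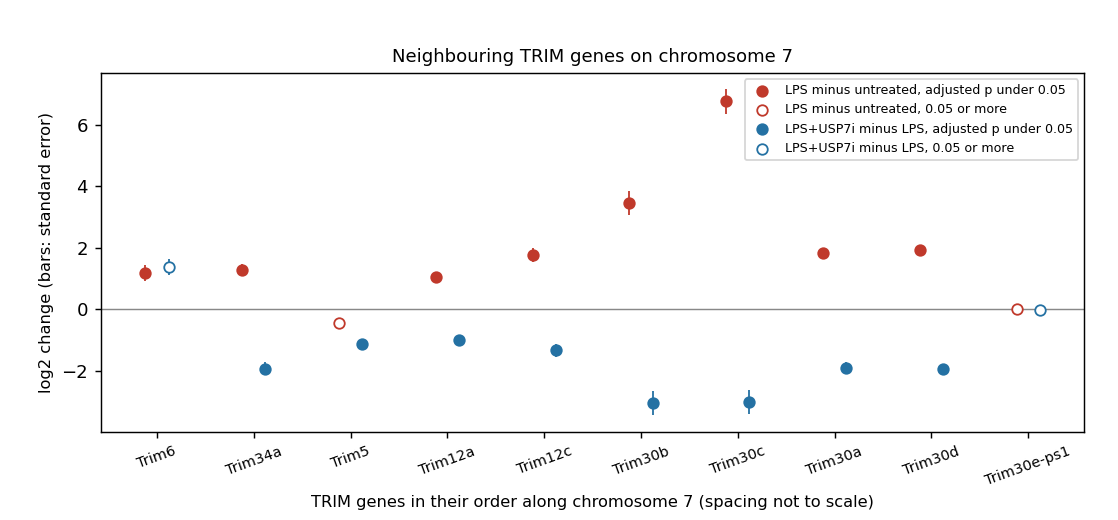
Log2 differences with their standard errors for the 10 neighboring TRIM genes of chromosome 7, in their order along the chromosome. Shown are LPS minus untreated and LPS+USP7i minus LPS. Filled points have a limma adjusted p under 0.05. Every gene in the row from *Trim12a* to *Trim30d* has a rise with LPS that passed, whereas *Trim5* and *Trim30e-ps1* have none.

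*Trim30a*, which targets the TAB2 and TAB3 adaptors and thereby limits Toll-like receptor signaling, was 13.45 and 13.28 on the LPS arrays, against 11.77 and 11.32 on the untreated and 11.35 and 11.57 on the LPS+USP7i arrays. Both LPS arrays lay above the other 4 arrays, and the untreated and LPS+USP7i arrays overlapped. It rose by 1.82 ± 0.19 (adjusted p = 0.0101) with LPS, a 3.52-fold increase, and fell by 1.91 ± 0.19 (adjusted p = 0.0205) in LPS+USP7i relative to LPS, a 3.75-fold decrease. *Trim30d* was 11.80 and 11.49 on the untreated arrays, 13.66 and 13.47 on the LPS arrays, and 11.48 and 11.75 on the LPS+USP7i arrays, the same order of groups. It rose by 1.92 ± 0.17 (adjusted p = 0.00699) and fell by 1.95 ± 0.17 (adjusted p = 0.0167), and its difference between LPS+USP7i and untreated cells was −0.028 ± 0.17 (adjusted p = 0.991). The largest rise of any member was that of *Trim30c*, which was 12.87 and 12.76 on the LPS arrays, against 6.43 and 5.67 on the untreated and 9.40 and 10.21 on the LPS+USP7i arrays. Here the 3 groups did not overlap, and LPS+USP7i lay between untreated and LPS. *Trim30c* rose by 6.76 ± 0.40 (adjusted p = 0.00401) with LPS, a 109-fold increase, and was 8.02-fold lower with the inhibitor (adjusted p = 0.0304), which left it 3.76 above untreated cells (adjusted p = 0.0139). The replicate block kept its rise with LPS and lost its fall with the inhibitor (adjusted p = 0.0651). *Trim30b* was 2.74 and 3.25 on the untreated arrays, 6.66 and 6.27 on the LPS arrays, and 3.87 and 2.96 on the LPS+USP7i arrays, and only the LPS arrays were well above background. Bounds are set, on each array, against the dimmest signal that still counted as well above background or the probe's own signal, whichever was higher. They hold for the signal used here: with normexp correction the differences given as bounds for *Trim30b*, *Trim45*, and *Trim65*, for *Trim9* and *Rnf207* relative to LPS, for *Trim69* relative to untreated cells, and for *Zbtb46* with LPS still passed but were only 0.56 to 1.05 in size. By these bounds *Trim30b* was at least 5.86-fold higher with LPS than in untreated cells (adjusted p = 0.0118) and at least 4.54-fold lower in LPS+USP7i than with LPS (adjusted p = 0.0296), the latter a call lost with the replicate block (adjusted p = 0.0577).

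*Trim12a* and *Trim12c*, with *Trim5*, are mouse relatives of the primate restriction factor TRIM5, and the product of *Trim12c* acts with TRAF6. *Trim12a* was 13.18 and 13.15 on the LPS arrays, against 12.14 and 12.09 on the untreated and 12.07 and 12.28 on the LPS+USP7i arrays, with both LPS arrays above all others. It rose by 1.05 ± 0.091 (adjusted p = 0.00692) and fell by 0.99 ± 0.091 (adjusted p = 0.0181) with the inhibitor, changes of 2.07-fold and 1.98-fold. *Trim12c* was 9.33 and 8.91 on the untreated arrays, 11.08 and 10.70 on the LPS arrays, and 9.65 and 9.46 on the LPS+USP7i arrays. By this probe all LPS+USP7i values lay above the untreated values and below the LPS values. It rose by 1.77 ± 0.22 (adjusted p = 0.0138) with LPS and fell by 1.33 ± 0.22 (adjusted p = 0.0449) with the inhibitor, and the other 2 probes passed in both comparisons in the same directions, 1 of them not with the inhibitor under the replicate block (adjusted p = 0.0596). *Trim34a*, another PRY-SPRY member, was 12.13 and 12.19 on the LPS arrays, against 11.03 and 10.73 on the untreated and 9.99 and 10.47 on the LPS+USP7i arrays. By this probe the LPS+USP7i arrays lay below the untreated arrays as well, whereas those of its second probe overlapped. It rose by 1.28 ± 0.21 (adjusted p = 0.0257) and fell by 1.93 ± 0.21 (adjusted p = 0.0220), and its second probe passed with LPS but not with the inhibitor (adjusted p = 0.0980). Both calls of the brighter probe were lost with the replicate block (adjusted p = 0.0536 and 0.0501), as was that of the second probe with LPS (adjusted p = 0.0690). *Trim5* itself differed from its neighbors. It was 6.92 and 6.56 on the untreated arrays, 6.27 and 6.31 on the LPS arrays, and 5.24 and 5.11 on the LPS+USP7i arrays, so the LPS arrays lay below the untreated arrays, with a difference of −0.45 ± 0.14 (adjusted p = 0.136) that did not pass. It fell by 1.12 ± 0.14 (adjusted p = 0.0296) in LPS+USP7i relative to LPS, a call that was lost with 75th percentile scaling (adjusted p = 0.0640) and in the authors' table (adjusted p = 0.0607). With normexp the fall was 0.47. *Trim6*, whose product makes unanchored ubiquitin chains that activate IKKε, was 6.04 and 6.62 on the LPS arrays, against 5.28 and 5.02 on the untreated and 7.57 and 7.84 on the LPS+USP7i arrays. Its values were highest with LPS+USP7i, without overlap between groups. It rose by 1.18 ± 0.25 (adjusted p = 0.0494) with LPS, a call lost in the authors' table (adjusted p = 0.0614), with the replicate block (adjusted p = 0.0728), and in the fit of these 2 groups (adjusted p = 0.0948). With normexp the rise was 0.53. Its further difference of 1.38 ± 0.25 (adjusted p = 0.0546) with the inhibitor did not pass, whereas LPS+USP7i was 2.55 above untreated cells (adjusted p = 0.0121). Over the alternatives the difference between LPS+USP7i and untreated cells ranged from 1.46 to 2.69.

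Because 8 of these neighbors rose with LPS, the 250 bases upstream of the transcription start were searched on both strands for the interferon-stimulated response element core (GAAA, any 2 bases, GAAA) and for a κB-like motif (GGGA, any 4 bases, CC) in the RefSeq promoters of GRCm38.p6. Of the 66 members, 50 had a promoter in the table, so a member not named below may lack a promoter there rather than a match. The first motif was found for 5 of these 50 members (10.0%), *Trim5*, *Trim12c*, *Trim26*, *Trim30a*, and *Trim30d*, and for 936 of 27025 genes (3.46%). The second was found for 5 members (10.0%), *Trim26*, *Trim27*, *Trim28*, *Trim46*, and *Trim47*, and for 5317 of 27025 genes (19.7%). The 5 windows with the first motif are given 5′ to 3′ along the gene, because they let the spacing and the surrounding bases be compared, with the matches in capitals. Their positions are chr7:104288107-104288356 for *Trim5*, chr7:104353350-104353599 for *Trim12c*, chr7:104465194-104465443 for *Trim30a*, and chr7:104507850-104508099 for *Trim30d*, all on the minus strand, and chr17:36836896-36837145 for *Trim26* on the plus strand.
Trim5: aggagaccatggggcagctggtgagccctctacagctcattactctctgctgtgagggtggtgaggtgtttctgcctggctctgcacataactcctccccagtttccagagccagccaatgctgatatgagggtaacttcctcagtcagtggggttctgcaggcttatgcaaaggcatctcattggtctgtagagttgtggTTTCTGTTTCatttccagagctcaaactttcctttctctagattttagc
Trim12c: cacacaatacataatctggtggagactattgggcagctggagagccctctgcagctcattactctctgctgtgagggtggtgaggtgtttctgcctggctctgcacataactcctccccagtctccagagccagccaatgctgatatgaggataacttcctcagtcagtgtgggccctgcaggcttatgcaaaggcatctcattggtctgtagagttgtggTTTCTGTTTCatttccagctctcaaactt
Trim30a: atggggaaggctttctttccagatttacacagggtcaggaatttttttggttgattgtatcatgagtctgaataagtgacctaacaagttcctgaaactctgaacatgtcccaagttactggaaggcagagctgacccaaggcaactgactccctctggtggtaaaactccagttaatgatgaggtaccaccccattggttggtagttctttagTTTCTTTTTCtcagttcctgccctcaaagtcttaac
Trim30d: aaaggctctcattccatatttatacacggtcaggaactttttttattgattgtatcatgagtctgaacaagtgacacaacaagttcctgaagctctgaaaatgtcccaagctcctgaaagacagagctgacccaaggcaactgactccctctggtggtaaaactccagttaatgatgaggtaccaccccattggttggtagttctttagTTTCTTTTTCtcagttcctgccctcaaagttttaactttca
Trim26: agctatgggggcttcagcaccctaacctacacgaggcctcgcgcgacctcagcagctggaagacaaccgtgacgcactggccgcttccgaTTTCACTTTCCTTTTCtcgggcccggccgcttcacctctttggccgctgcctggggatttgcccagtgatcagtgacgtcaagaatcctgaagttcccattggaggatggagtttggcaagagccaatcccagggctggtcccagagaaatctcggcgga
The match lay 40 to 49 bases before the start in *Trim5*, 20 to 29 in *Trim12c*, 27 to 36 in *Trim30a*, and 32 to 41 in *Trim30d*, and *Trim26* held 2 overlapping matches between 145 and 160 bases before the start. All matches were on the strand opposite to the gene. *Trim5* and *Trim12c* shared an unbroken run of 71 bases, and *Trim30a* and *Trim30d* a run of 118 bases, whereas the longest run of any other pair among the 5 was 7 to 10 bases. *Trim5* thus held the same match as *Trim12c* although it did not rise with LPS. A match describes these letters only and does not show that a factor binds there.

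The remaining interferon-linked members lie outside this row of neighbors. *Trim21*, the cytosolic antibody receptor, with its probe at chr7:109706478-109706537 in mm9, was 11.16 and 10.76 on the untreated arrays, 14.38 and 14.33 on the LPS arrays, and 12.39 and 13.15 on the LPS+USP7i arrays. The groups did not overlap, and LPS+USP7i lay between untreated and LPS. *Trim21* rose by 3.40 ± 0.31 (adjusted p = 0.00737) with LPS, a 10.5-fold increase. Its difference of −1.59 ± 0.31 (adjusted p = 0.0623) between LPS+USP7i and LPS did not pass, and its adjusted p ranged from 0.0133 to 0.204 over the alternatives, under 0.05 with normexp background correction, in the authors' table, and with dim probes left out. *Trim26*, whose product acts on nuclear IRF3, was 13.39 and 13.29 on the LPS arrays, against 11.95 and 11.67 on the untreated and 12.22 and 12.41 on the LPS+USP7i arrays. Both LPS arrays lay above the others, and *Trim26* rose by 1.53 ± 0.13 (adjusted p = 0.00706) and fell by 1.03 ± 0.13 (adjusted p = 0.0302), the fall being lost with the replicate block (adjusted p = 0.0610). *Trim14*, a mitochondrial adaptor of MAVS signaling, was 11.98 and 11.64 on the untreated arrays, 12.58 and 12.22 on the LPS arrays, and 10.66 and 10.74 on the LPS+USP7i arrays, so the inhibitor-treated arrays lay below all others. Its LPS difference of 0.59 ± 0.18 (adjusted p = 0.127) did not pass with quantile normalization but did with 75th percentile scaling (0.93, adjusted p = 0.0155), and it fell by 1.70 ± 0.18 (adjusted p = 0.0224) with the inhibitor, or 3.25-fold, which took it below untreated cells (adjusted p = 0.0350). Its second probe also fell with the inhibitor (adjusted p = 0.0263) but did not pass relative to untreated cells (adjusted p = 0.0621).

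**Figure D4:**
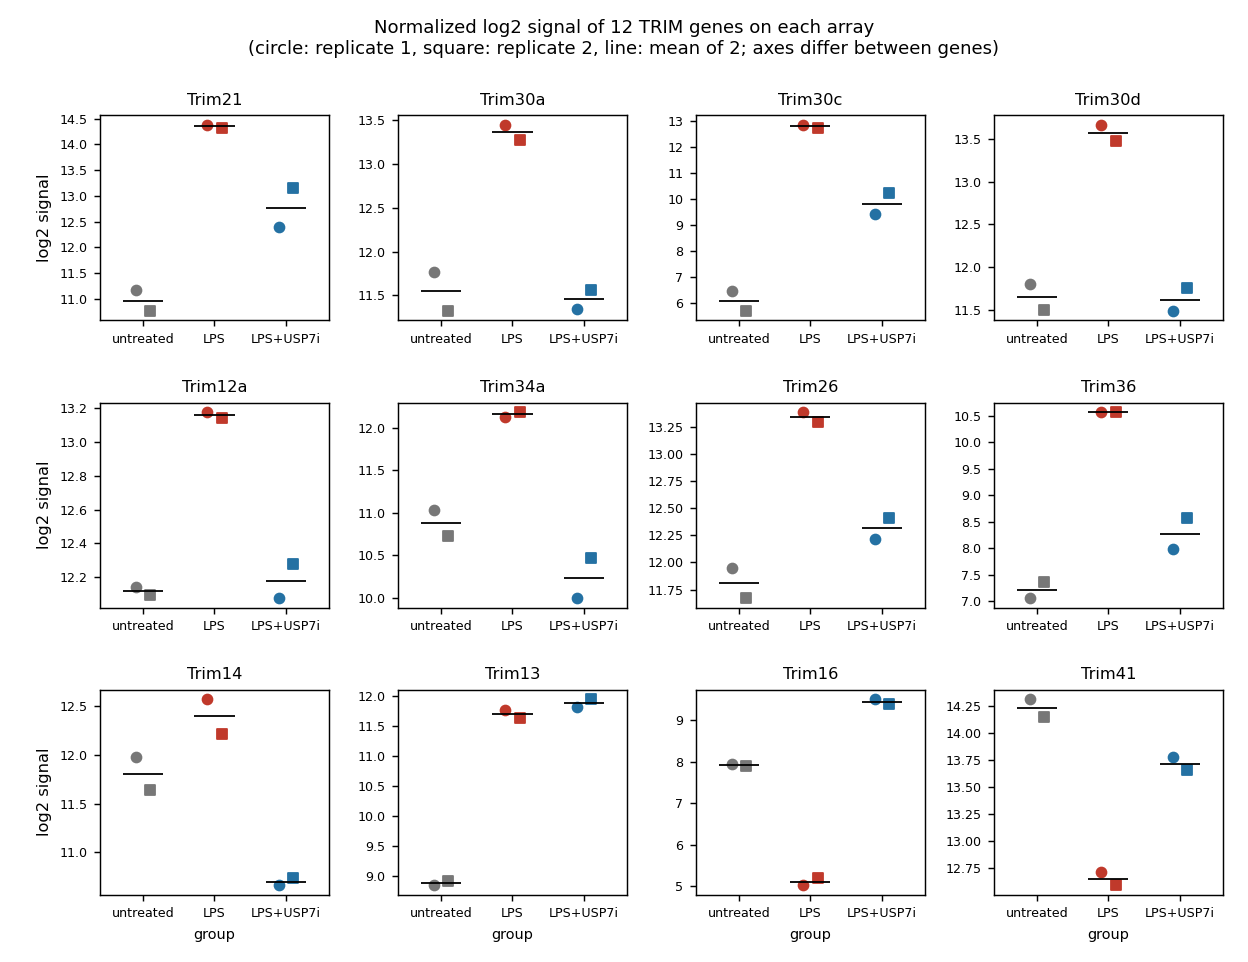
Log2 signal of 12 TRIM genes on each array, with circles for replicate 1 and squares for replicate 2 in untreated, LPS, and LPS+USP7i cells. *Trim21*, *Trim26*, *Trim36*, and *Trim12a* peak with LPS, *Trim13* is similarly high in both LPS-treated groups, and *Trim16* and *Trim41* are lowest with LPS.

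*Trim25* and *Trim56* could not be given a single direction, because their probes differed. *Trim25* ubiquitinates the RNA sensor RIG-I. Its probe with the highest signal, at chr11:88881521-88881580, was 15.17 and 15.22 on the LPS arrays, against 15.45 and 15.42 on the untreated and 15.73 and 15.77 on the LPS+USP7i arrays. All values lay within less than 1 log2 unit, lowest with LPS and highest with LPS+USP7i. The LPS difference of −0.24 ± 0.058 (adjusted p = 0.0727) did not pass and turned to 0.37 (adjusted p = 0.0466) with 75th percentile scaling, and the rise of 0.55 ± 0.058 (adjusted p = 0.0217) with the inhibitor was lost with that scaling (adjusted p = 0.154) and in the authors' table (adjusted p = 0.185). The second probe, which spans chr11:88874956-88881181, was 14.70 and 14.38 on the untreated arrays, 15.65 and 15.56 on the LPS arrays, and 14.72 and 14.82 on the LPS+USP7i arrays, with the LPS arrays highest. It rose by 1.06 ± 0.13 (adjusted p = 0.0142) with LPS and fell by 0.83 ± 0.13 (adjusted p = 0.0424) with the inhibitor, a call lost with the replicate block (adjusted p = 0.0688). *Trim56*, whose product acts on STING, was 12.25 and 12.05 on the LPS arrays, against 11.03 and 10.81 on the untreated and 12.17 and 12.22 on the LPS+USP7i arrays by its first probe, at chr5:137587218-137587277, and thus similarly high in both LPS-treated groups. This probe rose by 1.23 ± 0.12 (adjusted p = 0.00831) with LPS, and its difference with the inhibitor was 0.039 ± 0.12 (adjusted p = 0.933). The second probe, at chr5:137581520-137581579, was 10.53 and 10.62 on the untreated arrays, 9.95 and 10.09 on the LPS arrays, and 11.45 and 11.31 on the LPS+USP7i arrays. It fell by 0.56 ± 0.093 (adjusted p = 0.0276) with LPS, a call lost with the replicate block (adjusted p = 0.0550), and rose by 1.36 ± 0.093 (adjusted p = 0.0131) with the inhibitor. Which transcripts each probe detects was not tested.

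**Figure D5:**
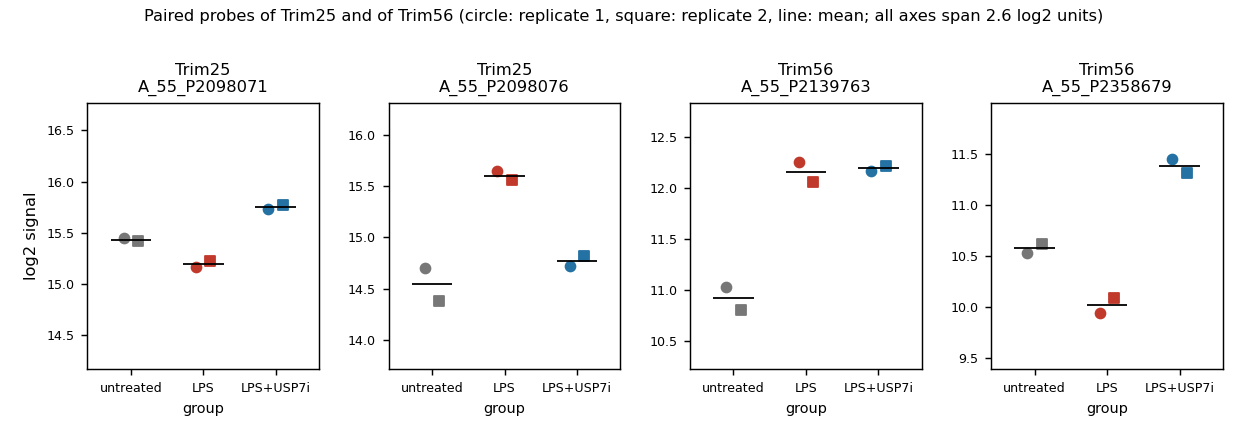
Log2 signal of both probes of *Trim25* and both probes of *Trim56* on the 6 arrays. In each gene the probes order the groups differently: LPS arrays are lowest for the first *Trim25* probe with the quantile normalization shown, although not with 75th percentile scaling, and highest for the other, and the second *Trim56* probe is lowest with LPS.

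Members that regulate Toll-like receptor or NF-κB signaling moved in both directions. Of 10 on the array, 3 were higher and 4 lower with LPS (median −0.46), and 2 were higher and 1 lower in LPS+USP7i relative to LPS (median 0.26). *Trim13*, an ER-anchored ligase, was 11.77 and 11.64 on the LPS arrays, against 8.84 and 8.91 on the untreated and 11.83 and 11.96 on the LPS+USP7i arrays. The LPS and LPS+USP7i arrays lay together, far above the untreated arrays. *Trim13* rose by 2.83 ± 0.087 (adjusted p = 0.00252) with LPS, a 7.13-fold increase, and its difference with the inhibitor was 0.18 ± 0.087 (adjusted p = 0.349). *Trim8*, which promotes NF-κB activation, was 12.25 and 12.16 on the untreated arrays, 10.52 and 10.62 on the LPS arrays, and 11.05 and 10.75 on the LPS+USP7i arrays, highest in untreated cells. It fell by 1.64 ± 0.13 (adjusted p = 0.00582) with LPS, a 3.12-fold decrease, and did not pass between LPS+USP7i and LPS (difference 0.33, adjusted p = 0.245). *Trim27* was 11.01 and 11.20 on the LPS arrays, against 12.07 and 12.12 on the untreated and 11.51 and 11.82 on the LPS+USP7i arrays, lowest with LPS. It fell by 0.99 ± 0.14 (adjusted p = 0.0194) with LPS. *Trim39* fell by 1.24 ± 0.24 (adjusted p = 0.0405) by its probe with the highest signal, whereas the second probe differed by −0.043 (adjusted p = 0.969). The mean over its probes did not pass (−0.64, adjusted p = 0.114), and normexp gave −0.61. *Trim45* was 6.92 and 6.93 on the untreated arrays, 4.51 and 4.91 on the LPS arrays, and 6.22 and 6.31 on the LPS+USP7i arrays, and its LPS arrays were not well above background, although its signal there exceeded the dimmest that was, so its own signal sets the bounds. It was at least 4.64-fold lower with LPS than in untreated cells (adjusted p = 0.00493) and at least 2.94-fold higher in LPS+USP7i than with LPS (adjusted p = 0.0198). Another *Trim45* probe, well above background on the untreated arrays alone, was also lower with LPS (at least 1.17-fold, adjusted p = 0.00436) but did not pass with the inhibitor (adjusted p = 0.869) and was lower in LPS+USP7i than in untreated cells (at least 1.35-fold, adjusted p = 0.00644), so the return with the inhibitor holds for the first probe only and did not pass in the mean over probes (adjusted p = 0.0554). *Trim9* was well above background on the LPS+USP7i arrays alone, at 5.50 and 5.52, at least 2.04-fold above LPS (adjusted p = 0.0202) and at least 3.03-fold above untreated cells (adjusted p = 0.0175). Over the alternatives its difference from untreated cells went down to 0.61, so the latter bound also holds only for the signal used here.

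Of the 7 members with a COS box, a motif that binds microtubules, only 3 were well above background on any array. With LPS, 1 was higher and 1 lower, and in LPS+USP7i relative to LPS 1 was higher and 1 lower. These counts are too small to set the class apart from all gene names. *Trim36* was 10.57 and 10.57 on the LPS arrays, against 7.06 and 7.36 on the untreated and 7.98 and 8.58 on the LPS+USP7i arrays. Its LPS arrays were identical to 2 decimals and lay above all others. It rose by 3.36 ± 0.24 (adjusted p = 0.00518) with LPS, a 10.3-fold increase, and fell by 2.29 ± 0.24 (adjusted p = 0.0219) with the inhibitor, or 4.90-fold. *Trim46*, known from the axon initial segment of neurons, was 6.72 and 6.47 on the untreated arrays, 4.96 and 5.04 on the LPS arrays, and 5.21 and 5.41 on the LPS+USP7i arrays. Both LPS-treated groups lay below untreated cells, and *Trim46* fell by 1.59 ± 0.13 (adjusted p = 0.00613) with LPS, or by 0.69 with normexp.

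The largest rise with the inhibitor was that of *Trim16*, a member without a RING domain that takes part in the clearance of damaged lysosomes. *Trim16* was 5.02 and 5.20 on the LPS arrays, against 7.94 and 7.89 on the untreated and 9.51 and 9.39 on the LPS+USP7i arrays. The LPS arrays were lowest and the LPS+USP7i arrays highest, with no overlap and little spread within groups. It fell by 2.81 ± 0.094 (adjusted p = 0.00258) with LPS, a 6.99-fold decrease, rose by 4.34 ± 0.094 (adjusted p = 0.00987) in LPS+USP7i relative to LPS, a 20.3-fold increase, and ended 1.54 above untreated cells (adjusted p = 0.00644). With normexp background correction these changes were smaller, −1.53 with LPS and 2.75 with the inhibitor, and both passed. Its second probe, not well above background with LPS, passed in the same directions with LPS and with the inhibitor, but was only 0.36 above untreated cells in LPS+USP7i and did not pass there (adjusted p = 0.145). Of the 4 members without a RING domain, 0 were higher and 2 lower with LPS (median −1.03), and 1 was higher and 1 lower with the inhibitor. *Trim44*, which stabilizes MAVS, was the other member lower with LPS. It fell by 0.74 ± 0.064 (adjusted p = 0.00698), but with 75th percentile scaling the difference was −0.32 and did not pass (adjusted p = 0.0722).

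The PRY-SPRY class as listed here leaves out the members without a RING domain, such as *Trim14* and *Trim16*, which are counted apart. Of its 34 members on the array, 10 were higher and 9 lower with LPS (median 0.0044), or 8 and 8 with the replicate block. With the inhibitor, 4 of the 34 were higher and 9 lower (median 0.036), or 5 and 5 with the replicate block. Those lower with LPS lay outside the row of neighbors on chromosome 7. Those higher with the inhibitor were *Trim25*, *Trim35*, *Trim41*, and *Trim62*. Both comparisons use the LPS arrays, so a low LPS array alone could give a fall and a rise. *Trim41*, a ligase of protein kinase C, was 14.31 and 14.14 on the untreated arrays, 12.71 and 12.59 on the LPS arrays, and 13.77 and 13.65 on the LPS+USP7i arrays. The LPS arrays lay below all others, and the LPS+USP7i arrays below the untreated arrays. *Trim41* fell by 1.58 ± 0.10 (adjusted p = 0.00438) with LPS and rose by 1.06 ± 0.10 (adjusted p = 0.0189) with the inhibitor. *Trim35* was 12.66 and 12.90 on the LPS arrays, against 13.81 and 14.01 on the untreated and 13.97 and 13.93 on the LPS+USP7i arrays, so untreated and LPS+USP7i arrays overlapped. It fell by 1.12 ± 0.12 (adjusted p = 0.0109) and rose by 1.17 ± 0.12 (adjusted p = 0.0219), although its second probe passed in neither comparison (−0.37, adjusted p = 0.596, and 1.58, adjusted p = 0.0819). With LPS the difference was −0.62 with 75th percentile scaling, which passed, and −0.75 in the mean over probes, which did not (adjusted p = 0.0549). *Trim62*, a ligase of CARD9, was 7.41 and 7.38 on the untreated arrays, 6.06 and 5.78 on the LPS arrays, and 7.44 and 7.11 on the LPS+USP7i arrays, with the LPS arrays lowest. It fell by 1.48 ± 0.16 (adjusted p = 0.0107) and rose by 1.36 ± 0.16 (adjusted p = 0.0259), or by 0.91 and 0.84 with normexp. *Trim47* was 10.40 and 11.02 on the LPS arrays, against 13.12 and 13.12 on the untreated and 11.43 and 11.48 on the LPS+USP7i arrays. It fell by 2.42 ± 0.23 (adjusted p = 0.00799), a 5.33-fold decrease, and the difference of 0.75 ± 0.23 (adjusted p = 0.155) with the inhibitor did not pass. *Trim68*, a coactivator of the androgen receptor, fell by 1.74 ± 0.20 (adjusted p = 0.0116) with LPS, or by 1.09 with normexp, and stayed low, with a difference of −0.080 (adjusted p = 0.903) with the inhibitor. *Trim65*, which ubiquitinates MDA5, was 6.73 and 6.41 on the untreated arrays, 3.73 and 2.64 on the LPS arrays, and 5.14 and 6.22 on the LPS+USP7i arrays, and its LPS arrays were not well above background. It was at least 4.24-fold lower with LPS (adjusted p = 0.0268), a call lost with the replicate block (adjusted p = 0.0577). Its second probe was not well above background in either LPS-treated group and did not pass with LPS (adjusted p = 0.159). *Trim11* fell by 0.70 ± 0.069 (adjusted p = 0.00876), or by 0.42 with 75th percentile scaling, a call lost in the authors' table (adjusted p = 0.0574).

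The members that act on chromatin, *Trim24*, *Trim28*, and *Trim33*, were grouped with *Trim66*. Of these 4, 0 were higher and 1 was lower with LPS (median −0.55), and 0 passed in either direction with the inhibitor (median 0.060). The replicate block gave 2 lower with LPS and 1 higher with the inhibitor. *Trim24* was 7.59 and 7.70 on the LPS arrays, against 9.09 and 9.26 on the untreated and 8.27 and 8.59 on the LPS+USP7i arrays, below its untreated level on all 4 LPS-treated arrays. It fell by 1.53 ± 0.14 (adjusted p = 0.00798) with LPS, and its difference of 0.79 ± 0.14 (adjusted p = 0.0556) with the inhibitor did not pass, although its second probe did (0.87, adjusted p = 0.0299), and with the replicate block so did the first (adjusted p = 0.0453). *Trim28*, the corepressor of KRAB zinc finger proteins, was 11.91 and 11.93 on the untreated arrays, 11.63 and 11.35 on the LPS arrays, and 11.91 and 11.41 on the LPS+USP7i arrays, with the LPS and LPS+USP7i arrays overlapping and a difference of −0.43 ± 0.21 (adjusted p = 0.301) with LPS that did not pass. *Trim33* was 6.62 and 6.97 on the LPS arrays, against 7.38 and 7.56 on the untreated and 5.75 and 6.24 on the LPS+USP7i arrays. It did not pass with LPS (−0.67, adjusted p = 0.152, or 0.0419 with the replicate block, where it passed) or with the inhibitor (−0.80, adjusted p = 0.138), but it was lower in LPS+USP7i than in untreated cells (−1.47, adjusted p = 0.0300). Of the 4 members with NHL repeats, 0 were higher and 1 was lower with LPS (median −0.58; 2 with the replicate block), and 0 passed with the inhibitor (median −0.23). *Trim2*, a ligase of neurofilament light chain, fell by 1.26 ± 0.14 (adjusted p = 0.0103) with LPS. Its second probe, well above background on the untreated arrays alone, did not pass (adjusted p = 0.159) except with the replicate block (adjusted p = 0.0388). *Trim32*, mutated in a limb girdle muscular dystrophy, had means of 10.94 ± 0.094 (SD, n = 2) untreated, 9.88 ± 0.49 with LPS, and 10.02 ± 0.38 with LPS+USP7i. Its replicates lay far apart in both LPS-treated groups, and the LPS difference of −1.05 ± 0.32 (adjusted p = 0.115) did not pass, although it did with the replicate block (adjusted p = 0.0472).

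Of the 11 members with another C-terminal domain or none, 2 were higher and 3 lower (4 with the replicate block) with LPS (median −0.38), and 1 was higher (2 with the replicate block) and 0 lower with the inhibitor (median 0.048). *Trim59*, which binds the signaling adaptor ECSIT, was 10.25 and 10.60 on the untreated arrays, 8.68 and 8.82 on the LPS arrays, and 9.44 and 9.66 on the LPS+USP7i arrays. Its groups did not overlap, with LPS lowest. It fell by 1.68 ± 0.16 (adjusted p = 0.00830) with LPS, and its difference of 0.80 ± 0.16 (adjusted p = 0.0664) with the inhibitor did not pass, although it did with the replicate block (adjusted p = 0.0442). The second *Trim59* probe, well above background on all 6 arrays, did not pass with LPS (−1.39, adjusted p = 0.0517) except with the replicate block (adjusted p = 0.0319). Of 6 members that act on p53, itself controlled by USP7, 0 were higher and 3 lower (4 with the replicate block) with LPS (median −1.28), and 0 passed with the inhibitor (median 0.73), or 2 higher with the replicate block. The members that passed only in LPS+USP7i relative to untreated cells included *Trim69*, which was 5.08 and 4.59 on the LPS arrays, against 3.97 and 3.41 on the untreated and 7.35 and 6.23 on the LPS+USP7i arrays, at least 7.11-fold higher (adjusted p = 0.0291), and *Trim37*, which fell by 1.11 ± 0.16 (adjusted p = 0.0248), or by 0.71 with normexp. The *Trim69* call was lost in the fit of these 2 groups (adjusted p = 0.0736). With the replicate block, *Trim69* passed relative to LPS as well (adjusted p = 0.0447), and *Trim37* passed with LPS (adjusted p = 0.0446). *Trim69* and *Trim37* were named after their values were seen. The 2 members in no class list were not well above background on any array and passed in no comparison.

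Of all gene names, 7.98% were higher and 12.8% lower with LPS. Genes that belong to the TRIM family under other names were more often higher than lower. Of 6 on the array, 4 were higher and 0 lower with LPS (median 2.41), 1 of them, *Rnf207*, without being well above background in either group and not passing with normexp or in the authors' table. With the inhibitor, 1 was higher and 2 were lower (median −0.70), or 0 and 1 with the replicate block. *Pml*, which organizes nuclear bodies, was 10.97 and 10.76 on the untreated arrays, 12.87 and 12.53 on the LPS arrays, and 11.15 and 11.49 on the LPS+USP7i arrays. It rose by 1.83 ± 0.19 (adjusted p = 0.00965) with LPS and fell by 1.38 ± 0.19 (adjusted p = 0.0327) with the inhibitor, the fall being lost with the replicate block (adjusted p = 0.0656). *Mid1*, a microtubule-bound ligase, rose by 2.85 ± 0.093 (adjusted p = 0.00256), or by 1.72 with normexp and 1.77 in the mean over probes. It fell by 0.68 ± 0.093 (adjusted p = 0.0326) with the inhibitor, a call lost with 75th percentile scaling (adjusted p = 0.0524), in the authors' table (adjusted p = 0.114), and in the mean over probes (adjusted p = 0.0820). *Mefv*, which encodes pyrin, rose by 3.81 ± 0.62 (adjusted p = 0.0263) with LPS, a call lost in the fit of these 2 groups (adjusted p = 0.0682). *Rnf207* was well above background on the LPS+USP7i arrays alone, at least 3.44-fold above LPS (adjusted p = 0.0315), a call lost with the replicate block (adjusted p = 0.0663).

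Partners and substrates of TRIM ligases were also more often higher than lower with LPS. Of 20 on the array, 11 were higher and 2 lower (median 0.69), and 1 was higher and 5 were lower in LPS+USP7i relative to LPS (median −0.29), or 1 and 3 with the replicate block. With LPS the block gave the same counts, 11 and 2, but for other genes. It lost *Irf8* as higher and *Traf3* as lower, and added *Traf6* as higher and *Irf3* as lower. *Nlrp3* rose by 5.04 ± 0.24 (adjusted p = 0.00324), and *Ifih1*, which encodes MDA5, rose by 4.00 ± 0.31 (adjusted p = 0.00562). *Ikbke*, which encodes IKKε, rose by 2.61 ± 0.21 (adjusted p = 0.00616) and fell by 1.64 ± 0.21 (adjusted p = 0.0289) with the inhibitor. *Ddx58*, which encodes RIG-I, was 15.05 and 14.90 on the LPS arrays, against 13.03 and 12.64 on the untreated and 13.31 and 13.69 on the LPS+USP7i arrays, with the LPS arrays highest. It rose by 2.14 ± 0.21 (adjusted p = 0.00852) and fell by 1.48 ± 0.21 (adjusted p = 0.0343), the fall being lost with the replicate block (adjusted p = 0.0688). *Irf8* was 14.17 and 14.11 on the untreated arrays, 15.25 and 15.87 on the LPS arrays, and 12.51 and 12.35 on the LPS+USP7i arrays, lowest with the inhibitor, and it fell by 3.13 ± 0.23 (adjusted p = 0.0144) relative to LPS. *Traf3* rose by 1.49 ± 0.097 (adjusted p = 0.0126) with the inhibitor. *Usp7*, which encodes the target of the inhibitor, was 12.41 and 12.40 on the LPS arrays, against 11.95 and 11.98 on the untreated and 12.11 and 12.43 on the LPS+USP7i arrays. It passed neither with LPS (0.44, adjusted p = 0.104) nor with the inhibitor (−0.14, adjusted p = 0.627), although with 75th percentile scaling the LPS difference was 0.80 (adjusted p = 0.0211).

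Of 19 genes for ubiquitin, ISG15, and their conjugating enzymes, 8 were higher and 3 lower with LPS (median 0.60), or 9 and 2 with the replicate block, and 3 were higher and 5 lower in LPS+USP7i relative to LPS (median −0.091), or 2 and 1 with the replicate block. *Herc6*, an ISG15 ligase of the mouse, rose by 4.75 ± 0.24 (adjusted p = 0.00343) and fell by 1.44 ± 0.24 (adjusted p = 0.0481). *Isg15* rose by 3.80 ± 0.27 (adjusted p = 0.00502). *Usp18*, which removes ISG15, rose by 3.58 ± 0.23 (adjusted p = 0.00438) and fell by 1.75 ± 0.23 (adjusted p = 0.0298). The conjugating enzyme gene *Ube2e2* rose by 1.21 ± 0.19 (adjusted p = 0.0249) and fell by 1.39 ± 0.19 (adjusted p = 0.0328), and *Uba7*, the activating enzyme of ISG15, fell by 1.18 ± 0.15 (adjusted p = 0.0292) with the inhibitor. Of these falls, those of *Herc6*, *Usp18*, and *Ube2e2* were lost with the replicate block (adjusted p = 0.0849, 0.0548, and 0.0635).

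As a check on the treatment and the cells, all 4 LPS response genes, *Tnf*, *Il6*, *Il1b*, and *Il12b*, were higher with LPS (median 8.93). With the inhibitor, *Tnf* (−0.78) and *Il12b* (−5.73) were lower (median −3.19 over the 4). Both calls were lost with the replicate block (adjusted p = 0.0587 and 0.0770), as was that of *Tnf* in the authors' table (adjusted p = 0.0508). *Il1b* (−3.82 ± 0.73, adjusted p = 0.0607) and *Il6* (−2.55 ± 0.57, adjusted p = 0.0831) also differed downward with the inhibitor but did not pass. All 9 macrophage markers were well above background on all 6 arrays. Their summed linear signal was 730841 and 722718 on the untreated arrays, 728012 and 751820 on the LPS arrays, and 630295 and 589069 on the LPS+USP7i arrays. Of these 9 genes, 2 were higher and 1 lower with LPS and 0 were higher and 2 lower with the inhibitor. *Cd14* rose by 1.69 ± 0.12 (adjusted p = 0.00518) and fell by 1.31 ± 0.12 (adjusted p = 0.0184), *Fcgr1* fell by 1.60 ± 0.22 (adjusted p = 0.0317) with the inhibitor, *Sfpi1* rose by 1.34 ± 0.18 (adjusted p = 0.0162), and *Itgam* fell by 0.66 ± 0.10 (adjusted p = 0.0233), a call lost with 75th percentile scaling (−0.22) and in the mean over probes (−0.38). With the replicate block, *Sfpi1* also fell with the inhibitor (adjusted p = 0.0478). Among the markers of T and NK cells, B cells, neutrophils, fibroblasts, and mast cells, 4, 3, 5, 4, and 3 genes, 0 passed in either of these comparisons without the block, but several differed by replicate number in the same direction in all 3 groups, and some passed with it. With the block, the mast cell marker *Kit* was lower with LPS (−1.44, adjusted p = 0.0134). Of the 5 neutrophil markers in that fit, *Camp* was higher with LPS (2.06, adjusted p = 0.0214) and lower with the inhibitor (−1.72, adjusted p = 0.0499), *Mpo* was lower with the inhibitor (3.99-fold, adjusted p = 0.0362), and *Elane* was lower with LPS (−0.42, adjusted p = 0.0463) and higher with the inhibitor (0.62, adjusted p = 0.0466). Summed, the neutrophil markers were 4443 and 4173 on the untreated arrays, 4135 and 4016 on the LPS arrays, and 4531 and 4606 on the LPS+USP7i arrays. The mast cell markers, with *Mcpt4* not well above background on any array, summed to 172 and 87.1 on the untreated, 93.3 and 40.6 on the LPS, and 89.4 and 36.1 on the LPS+USP7i arrays. The B cell markers summed to 224 and 56.7 on the untreated, 515 and 110 on the LPS, and 308 and 74.3 on the LPS+USP7i arrays, higher on replicate 1 in each group, and 0 of the 3 passed with the block. Of the 3 dendritic cell markers, *Zbtb46* was at least 5.65-fold higher with LPS (adjusted p = 0.00435), and *Flt3* and *Xcr1* were not well above background on any array. The summed signal of these 3 was 28.2 and 37.7 on the untreated arrays, 113 and 122 on the LPS arrays, and 75.8 and 86.1 on the LPS+USP7i arrays. The part of these cell types in the changes of the TRIM genes was not tested.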

How the data were processed

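RNA of 6 samples, 2 per group, was measured on 1-color arrays. The authors deposited scanner output, in which spot intensity was already corrected for background by Agilent Feature Extraction, and a table of normalized log2 values, used here as an alternative. The processed signal of spots other than controls was quantile-normalized on the log2 scale without spots marked as outliers, and spots of a probe were averaged. The package limma 3.58.1 in R 4.3.3 fitted 1 linear model across all arrays, with Benjamini-Hochberg adjustment over 55680 probes and a threshold of 0.05, and was tested on simulated data. The 3 groups shared 1 estimate of the spread, with 3 residual degrees of freedom, and the number of arrays limits the precision. Where both arrays of a group were not well above background, a bound was taken per array against the dimmest signal that counted as well above background, or against the signal of the probe itself if that was higher. All 66 member names matched a RefSeq symbol, and 91 of 100 probes matched by accession, each to the same symbol. Genes named were all members past the threshold in LPS minus untreated or LPS+USP7i minus LPS and well above background on both arrays of a group, up to the 12 largest rises and falls in each comparison, a fixed set of *Trim25*, *Trim30*, *Trim12*, *Trim21*, *Trim34*, *Trim14*, *Trim56*, *Trim26*, *Trim27*, *Trim38*, *Trim13*, *Trim8*, *Trim24*, *Trim28*, *Trim33*, and *Trim32*, and in each list of other genes the 4 largest changes past the threshold and *Usp7*. *Trim11*, *Trim37*, *Trim39*, *Trim44*, and *Trim69* were named after their values were seen. Differences between replicates 1 and 2 correlated between groups (r = 0.468, 0.398, and 0.422 for untreated with LPS, untreated with LPS+USP7i, and LPS with LPS+USP7i, over 20705 probes), so arrays with the same number varied together. This pairing comes from the data: the sources do not say what same-numbered arrays share, and slide column and number cannot be told apart. The main fit has no block. Counts of members and listed genes that change with the replicate block are given beside the results, as are changed calls of named TRIM genes. The members and lists were chosen with earlier results of these data known. Alternatives were 75th percentile scaling, normexp (offset 50), the deposited values, leaving out dim probes, keeping outlier spots, fits of 2 groups, a replicate block, the mean over probes, and leaving out each array.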

Additional observations from a re-analysis of the deposited data

How the results depend on the processing

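The counts of TRIM genes called stayed within 1.5 times their reported values, apart from those given here. With 75th percentile scaling, 25 were higher with LPS and 21 in LPS+USP7i relative to untreated cells, where 35.0% and 35.1% of all gene names were higher. In LPS+USP7i relative to LPS, 13 were higher with normexp background correction (8.26% of all gene names) and 12 with dim probes left out (15.1%), which tests fewer members (43). Fits of 2 groups called 0 higher and 0 lower there, as for all 34843 gene names, with 14 higher and 15 lower at an unadjusted limma p under 0.05, and 5 higher relative to untreated cells (3.87%). With the replicate block, 10 were higher and 7 lower in LPS+USP7i relative to LPS, and it changed no call of a named TRIM gene with LPS or in LPS+USP7i relative to LPS other than those given above. Leaving out each array in turn gave 8 to 12 higher and 10 to 17 lower with LPS (3.28% to 7.42% and 4.73% to 11.6% of all gene names), 0 to 4 higher and 0 to 6 lower in LPS+USP7i relative to LPS (0% to 5.47% and 0% to 3.41%), and 3 to 8 higher and 2 to 9 lower relative to untreated cells (1.37% to 5.74% and 1.63% to 5.62%); a group left with 1 array is assumed to vary like the others. Some signs turned, 1 of them that of a called rise, *Trim25* in LPS+USP7i relative to LPS. With LPS, *Trim25* was 0.37 with 75th percentile scaling and 0.41 with the mean over probes, and *Trim9* 0.083 with the latter. In LPS+USP7i relative to LPS, *Trim25* was −0.14 and *Usp7* 0.0019 with the mean over probes, *Trim56* −0.12 and *Trim68* 0.044 with 75th percentile scaling, and *Trim68* 0.015 with normexp and 0.0016 with the deposited values. *Trim30e-ps1* was 0.00037, 0.0072, and 0.10 under these 3. Some differences that did not pass did so under at least 1 alternative. With LPS these included *Trim14*, *Trim25*, *Trim32*, *Trim33*, *Trim37*, and *Usp7*, and *Trim30e-ps1*, which was at background level. In LPS+USP7i relative to LPS they included *Trim6*, *Trim11*, *Trim21*, *Trim24*, *Trim27*, *Trim33*, *Trim39*, *Trim44*, *Trim47*, *Trim56*, *Trim59*, *Trim65*, and *Trim69*. Over the arrays left out in turn, *Trim2* ranged from −0.28 to 0.047, *Trim28* from −0.083 to 0.42, *Trim32* from −0.22 to 0.48, *Trim38* from −0.069 to 0.29, *Trim56* from −0.059 to 0.14, *Trim68* from −0.30 to 0.14, and *Usp7* from −0.30 to 0.026. The cause was not tested. Signal near background limits 23 members to no statement and *Trim9*, *Trim30b*, *Trim45*, *Trim65*, and *Trim69* to bounds.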
